A study of Mus musculus with 10 samples.

Results

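This account covers the genes of prostanoid synthesis and signaling in the mouse aorta: Ptgs1, Ptgs2, Ptgis, Tbxas1, Ptges, Ptgds, Ptgir, Tbxa2r, Ptger3 and Ptger4. They were taken by gene symbol from the table of array values, through the platform annotation, and 9 of the 10 were measured, among 22180 genes in all. Ptgs1 has no probe set of that name in the annotation used and is not analysed here. The arrays compare 5 aortas of ApoE/IL-17 double knockout mice with 5 aortas of ApoE knockout mice. All 10 mice were males on a C57BL/6 background that lacked apolipoprotein E in the whole body. They began a high fat diet at 8 weeks of age, stayed on it for 3 weeks and were killed at 11 weeks, as a model of early hyperlipidemia. The double knockouts were bred by crossing mice that lack IL-17 in every cell with ApoE knockout mice, so the deletion is not limited to a cell type. Affymetrix Mouse Gene 2.0 ST arrays measured the total RNA of the whole vessel.

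Prostanoids are short-lived lipid signals. Phospholipases release arachidonic acid from membranes, a cyclooxygenase converts it to prostaglandin H2, and terminal synthases turn this into prostacyclin, thromboxane or the prostaglandins D and E, each of which acts on its own G protein-coupled receptors. In an artery, prostacyclin from the vessel wall relaxes smooth muscle and restrains platelets, while thromboxane, made mainly by platelets and macrophages, contracts the vessel and activates platelets.

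Values are log2 expression values as deposited, and differences are double knockout minus ApoE knockout on that scale. Il17a averaged 4.66 in the double knockout and 4.41 in the ApoE knockout aortas, both below 5.78. This is the level under which 95% of 1411 genes of smell, pheromone and taste receptors lie by their mean, and it serves as the dim level, so Il17a says nothing about the genotype labels. Apoe, deleted in both groups by their labels, averaged 6.98 and 6.31 (difference 0.67, SE 0.10, limma adjusted p = 0.0011). Both means lay above the dim level, so these values do not show the deletion in either group. The source of this signal was not tested. All 9 measured members lay above the dim level of 5.78 in both groups. All 12 smooth muscle markers, the defining cells of the labelled tissue, did so too, with a mean over the list of 11.23 to 11.30 in double knockout and 10.80 to 11.31 in ApoE knockout arrays. The median probe set lay between 5.95 and 6.03 on the double knockout arrays and between 5.76 and 5.80 on the ApoE knockout arrays, and the median difference of all genes was 0.10, against -0.02 after quantile normalization and -0.11 after centring each array on its own median. No batch is recorded in the sources used here, and the ApoE knockout samples carry a protocol that names ApoE/caspase-1 deficient mice and no IL-17, so that a difference in handling cannot be told apart from genotype.

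Of the 9 measured members, 2 were lower in the double knockout, namely Tbxas1 and Ptger4, and 0 were higher, by limma with a Benjamini-Hochberg adjusted p under 0.05 over all genes. At an unadjusted limma p under 0.05, 2 were lower and 1, Ptgds, higher, against 2650 lower and 6883 higher of all 22180 genes. With array weights limma called Ptgds too, and 7336 of all genes, 73.1% of them higher. Without weights, 30.3% of all 22180 genes passed at the adjusted p, 7.53% as lower and 22.8% as higher. Of the members 22.2% passed, all of them lower. Of all genes that passed, 75.1% were higher in the double knockout, and this share was 44.4% after quantile normalization and 22.8% after centring. With 9 members the calls are read gene by gene, and nothing is drawn from their share. The median difference of the 9 members was -0.11. None of the 9 members had groups that do not overlap, which 20.4% of all genes had. The plots of the members by array and of their differences show both points.

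**Figure D1:**
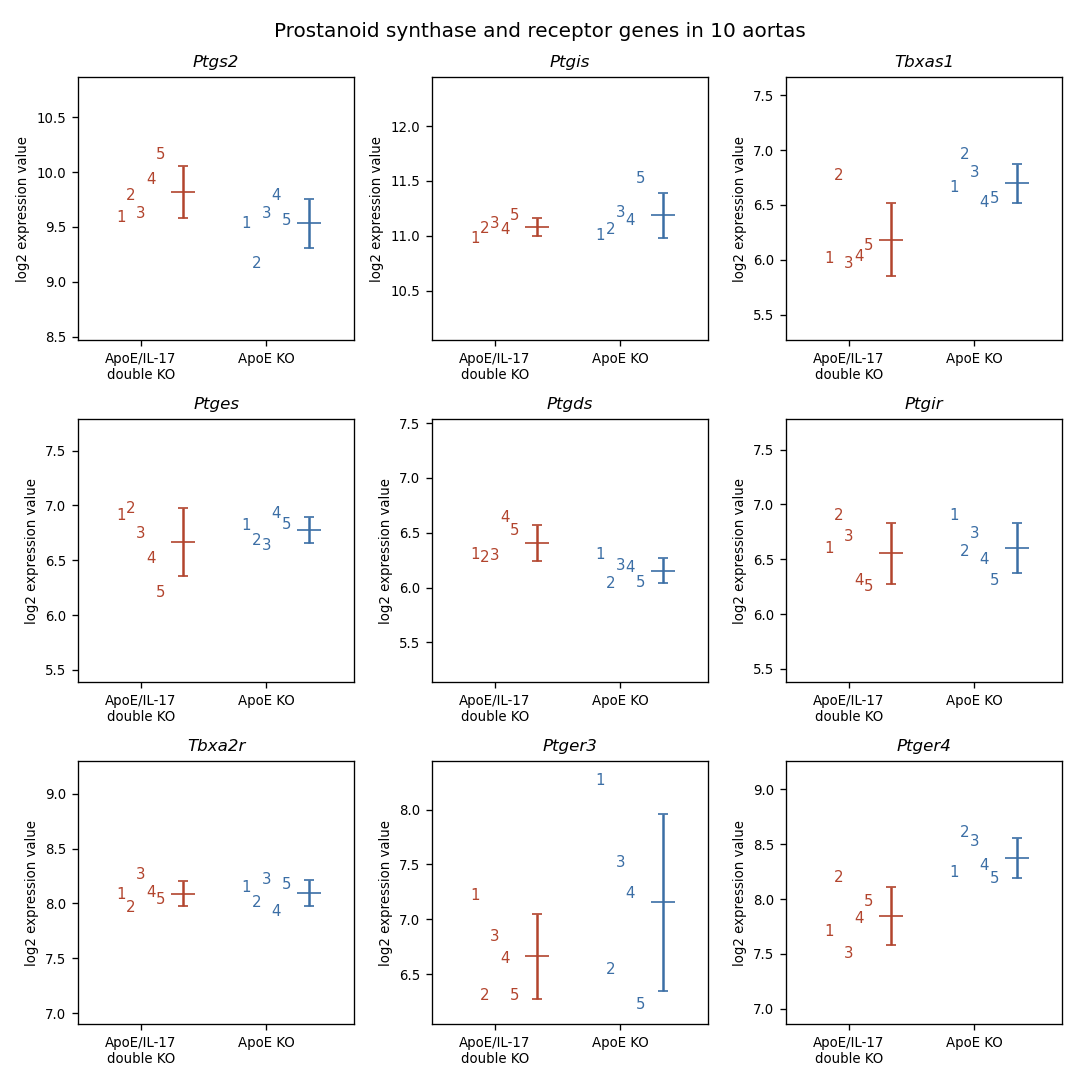
Log2 expression value (vertical axis) of the 9 measured members in 5 double knockout (red) and 5 ApoE knockout (blue) aortas. Digits are the replicate numbers of the titles and bars the mean ± SD (n = 5). Tbxas1 and Ptger4 are lower in the double knockout except in its replicate 2, and the groups overlap in every panel.

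**Figure D2:**
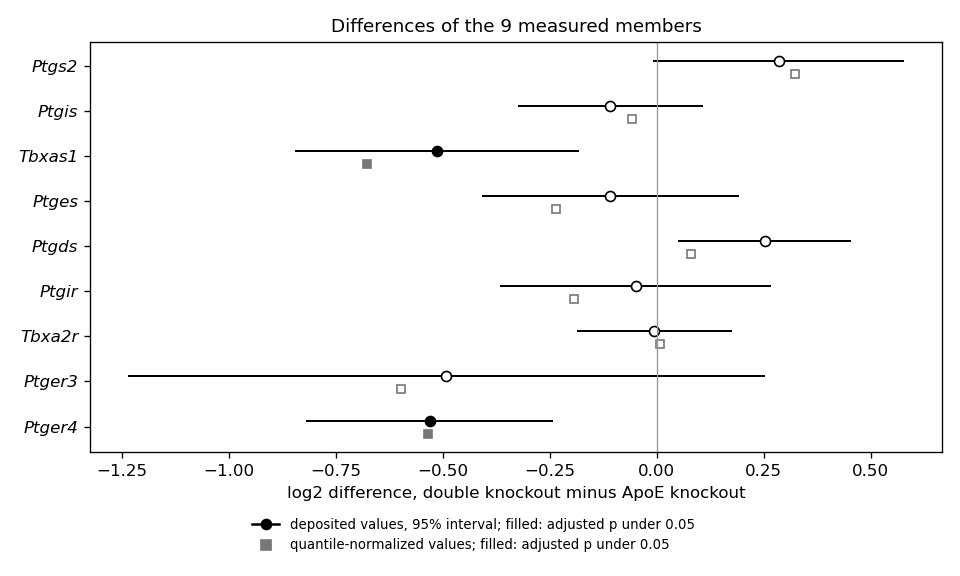
Difference between double knockout and ApoE knockout on the log2 scale (horizontal axis) of the 9 measured members, with 95% intervals for the deposited values and with quantile-normalized values below. Only Tbxas1 and Ptger4 are filled, at -0.51 and -0.53 as deposited.

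Ptgs2 encodes the inducible cyclooxygenase COX-2, the enzyme that inflammatory signals switch on in many cells. It had 9.59, 9.78, 9.62, 9.93 and 10.16 in double knockout replicates 1 to 5, against 9.53, 9.17, 9.62, 9.79 and 9.56 in ApoE knockout replicates 1 to 5. Double knockout replicates 4 and 5 lay above all ApoE knockout aortas, and ApoE knockout replicate 2 below all others. The difference of 0.28 (SE 0.13, 95% interval -0.01 to 0.58) did not pass (limma adjusted p = 0.12). With the arrays centred the difference was 0.08. The genes whose values followed Ptgs2 most closely after the group means were subtracted were Tarbp1 (Pearson r 0.92), Ccn2 (0.90) and Gng12 (0.90). These r values describe 10 arrays and are the highest of 12473 genes above the dim level. Ccn2 encodes connective tissue growth factor, and its own difference was 0.33 (SE 0.12, adjusted p = 0.056).

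Among the terminal synthases, thromboxane synthase stood apart from the others. Tbxas1, which converts prostaglandin H2 to thromboxane A2, had 6.02, 6.77, 5.97, 6.03 and 6.13 in double knockout replicates 1 to 5, against 6.66, 6.96, 6.79, 6.52 and 6.56 in ApoE knockout replicates 1 to 5. In 4 of the 5 double knockout aortas it lay below every ApoE knockout aorta, and replicate 2 alone lay among them. Its double knockout mean lay close to the dim level. It was 1.43-fold lower in the double knockout (6.18 ± 0.33 against 6.70 ± 0.18, SD, n = 5 per group; log2 difference -0.51, SE 0.15, limma adjusted p = 0.025). Without double knockout replicate 2 the difference was -0.66 (adjusted p = 0.0015) and the groups no longer overlapped, as was then so for 26.3% of all genes. The call was lost without double knockout replicate 1, 3 or 4 or ApoE knockout replicate 2 or 3 (limma adjusted p 0.056 to 0.059).

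To show the sequence upstream of the called members, the 250 bases before the RefSeq start site in assembly GRCm38.p6 are given for Tbxas1 and Ptger4, and for Ptgs2, the measured cyclooxygenase, whose difference did not pass. RefSeq windows were at hand for 8 of the 9 measured members, and the Tbxas1 window lies before a start site inside the gene as annotated, downstream of its outermost end. Capitals mark letters of 3 motifs, searched on both strands after the sequences had been seen: that of NF-E2, a transcription factor of platelet precursors, which reads TGCTGATTCA here with any base allowed at its seventh position, the core GAGGAA of PU.1, a factor of macrophages and other myeloid cells, and TTGCGCAA, bound by C/EBP factors. No motif overlapped another.
Tbxas1 (chr6:38918736-38918985, plus strand): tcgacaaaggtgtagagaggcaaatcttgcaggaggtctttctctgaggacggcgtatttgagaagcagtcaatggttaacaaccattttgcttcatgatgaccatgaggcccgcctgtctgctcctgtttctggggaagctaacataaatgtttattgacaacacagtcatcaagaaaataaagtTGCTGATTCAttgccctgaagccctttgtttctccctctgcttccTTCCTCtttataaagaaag
Ptger4 (chr15:5244188-5244437, minus strand): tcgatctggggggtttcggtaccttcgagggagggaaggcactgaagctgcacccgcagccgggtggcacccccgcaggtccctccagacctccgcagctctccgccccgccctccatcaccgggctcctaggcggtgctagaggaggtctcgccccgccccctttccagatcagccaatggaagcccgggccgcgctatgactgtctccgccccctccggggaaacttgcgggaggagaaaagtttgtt
Ptgs2 (chr1:150099781-150100030, plus strand): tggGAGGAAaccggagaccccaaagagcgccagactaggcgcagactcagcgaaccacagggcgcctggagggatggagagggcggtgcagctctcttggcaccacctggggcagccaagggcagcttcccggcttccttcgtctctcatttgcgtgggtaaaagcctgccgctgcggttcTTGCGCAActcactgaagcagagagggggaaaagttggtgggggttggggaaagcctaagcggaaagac
The Tbxas1 window holds the NF-E2 letters from position -64 to -55 relative to the start site, which 0.353% of 32851 RefSeq windows of the same length hold, and the PU.1 core on the other strand from -19 to -14. The Ptgs2 window holds the C/EBP letters from -69 to -62, present in 0.164% of windows, and the PU.1 core from -247 to -242, present in 23.3%. These letters are not in the Ptger4 window. Of the windows not printed, those of Ptges and Ptgir, whose differences did not pass, hold the PU.1 core too. A match is a description of the sequence and not a site of binding.

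The difference of prostacyclin synthase did not pass. Ptgis, whose product makes prostacyclin in endothelium and smooth muscle, ranged from 10.97 to 11.19 with a median of 11.06 in the double knockout, and from 11.00 to 11.52 with a median of 11.14 in the ApoE knockout. Its difference of -0.11 (SE 0.10, 95% interval -0.32 to 0.11, limma adjusted p = 0.41) did not pass, though it did after centring the arrays (-0.31, adjusted p = 0.040). It was -0.06 after quantile normalization and -0.02 without ApoE knockout replicate 5, the aorta with the highest value. Within an array, the log2 value of Ptgis minus that of Tbxas1 was 4.96, 4.29, 5.14, 5.02 and 5.06 in double knockout replicates 1 to 5, against 4.34, 4.10, 4.42, 4.62 and 4.96 in ApoE knockout replicates 1 to 5. Since these are different probe sets, only the shift of 0.40 between the groups carries meaning, not the size of each value. It is given without a test, and double knockout replicate 2 and ApoE knockout replicate 5 break the separation of the groups.

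The synthases of prostaglandins E and D did not pass. Ptges, the inducible microsomal prostaglandin E synthase that works with COX-2, ranged from 6.20 to 6.97 in the double knockout and from 6.63 to 6.93 in the ApoE knockout (difference -0.11, SE 0.14, 95% interval -0.41 to 0.19, limma adjusted p = 0.56). Double knockout replicates 4 and 5 lay below all ApoE knockout aortas, and replicate 2 above them. Ptgds, the lipocalin-type prostaglandin D synthase, had 6.30, 6.27, 6.29, 6.64 and 6.52 in double knockout replicates 1 to 5, against 6.30, 6.03, 6.20, 6.18 and 6.05 in ApoE knockout replicates 1 to 5. Its difference of 0.25 (SE 0.09, limma adjusted p = 0.056) missed the threshold, passed without double knockout replicate 2 (adjusted p = 0.046) or ApoE knockout replicate 1 (0.044), and was 0.08 after quantile normalization (adjusted p = 0.56). Ptgds lay less than 1 log2 unit above the dim level, and the median difference of the chemosensory receptor genes was 0.29, larger than that of Ptgds.

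Of the 4 receptors, Ptger4 was lower in the double knockout. Ptger4 encodes EP4, a prostaglandin E receptor that raises cyclic AMP and is used by macrophages and lymphocytes as well as vessel wall cells. It had 7.70, 8.20, 7.51, 7.82 and 7.98 in double knockout replicates 1 to 5, against 8.24, 8.61, 8.52, 8.31 and 8.18 in ApoE knockout replicates 1 to 5. As for Tbxas1, 4 of 5 double knockout aortas lay below every ApoE knockout aorta, and replicate 2 was the exception. It was 1.44-fold lower (7.84 ± 0.26 against 8.37 ± 0.18, SD, n = 5 per group; log2 difference -0.53, SE 0.13, limma adjusted p = 0.012), and the call was kept in all 20 alternatives run, with adjusted p from 0.0029 to 0.040.

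Ptger3, which encodes EP3, a prostaglandin E receptor that lowers cyclic AMP and is abundant in adipocytes, varied most among the members. It had 7.22, 6.30, 6.85, 6.65 and 6.30 in double knockout replicates 1 to 5, against 8.26, 6.54, 7.52, 7.23 and 6.22 in ApoE knockout replicates 1 to 5. The SD was 0.39 in the double knockout and 0.81 in the ApoE knockout, and all 5 double knockout aortas lay within the ApoE knockout range. The difference of -0.49 (SE 0.34, 95% interval -1.23 to 0.25) did not pass (limma adjusted p = 0.28), and leaving out 1 aorta moved it between -0.22, without ApoE knockout replicate 1, and -0.73, without ApoE knockout replicate 5 (adjusted p = 0.58 and 0.099). The interval spans both a fall as large as that of Ptger4 and a rise.

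The receptors for prostacyclin and thromboxane showed no difference that passed. Ptgir, the prostacyclin receptor of smooth muscle and platelets, ranged from 6.25 to 6.90 with a median of 6.60 in the double knockout and from 6.30 to 6.90 with a median of 6.58 in the ApoE knockout (difference -0.05, SE 0.14, 95% interval -0.36 to 0.27, limma adjusted p = 0.81). Tbxa2r, the thromboxane receptor of the same cells, ranged from 7.96 to 8.27 with a median of 8.08 in the double knockout and from 7.93 to 8.22 with a median of 8.14 in the ApoE knockout (difference -0.01, SE 0.08, 95% interval -0.19 to 0.17, adjusted p = 0.96). Tbxa2r had the narrowest interval of the 9 members. Within an array, Ptgir minus Tbxa2r averaged -1.54 ± 0.30 in the double knockout and -1.49 ± 0.23 in the ApoE knockout (SD, n = 5 per group), a shift of -0.04 between overlapping groups, given without a test.

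Platelet transcripts were lower in the same aortas, and Tbxas1, Ptgir and Tbxa2r are all known from platelets. Of 10 measured platelet markers, 9 fell and 1, the integrin gene Itgb3, rose, with a median difference of -1.18. Over all genes, 7.53% passed as lower and 22.8% as higher. The mean of the list ran from 7.57 to 8.06 in the double knockout and from 8.86 to 9.34 in the ApoE knockout, with no overlap. Gp9, a subunit of the platelet receptor for von Willebrand factor, had the largest fall of the list, a log2 difference of -2.14 (SE 0.20, limma adjusted p = 7.4e-05). The markers of smallest p, Treml1 and Ppbp, had smaller falls, of -1.04 (SE 0.09) and -1.38 (SE 0.12). The differences of Tbxas1, Ptgir and Tbxa2r, at -0.51, -0.05 and -0.01, were smaller than the median of the platelet list, and the part of platelets in them was not tested.

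Within each group, Tbxas1 and Ptger4 varied with the macrophage markers. The mean of 12 macrophage markers was 9.20, 9.92, 9.04, 9.40 and 9.37 in double knockout replicates 1 to 5, against 9.60, 9.82, 9.82, 9.50 and 9.44 in ApoE knockout replicates 1 to 5. Double knockout replicate 2, where Tbxas1 and Ptger4 were highest in that group, had the highest macrophage mean of all 10 aortas, and replicate 3, where both were lowest, had the lowest. After the group means were subtracted, Pearson's r with the macrophage mean was 0.94 for Tbxas1 and 0.93 for Ptger4, and Spearman's rho 0.84 and 0.98. These are descriptions of 10 arrays, chosen after the values were seen, and r was 0.87 and 0.88 without the 2 arrays farthest from the median of the macrophage mean. Of the 12 markers, 1, the hemoglobin scavenger receptor gene Cd163, fell (-0.81, SE 0.10, limma adjusted p = 0.0004), and 11 did not pass. As 7.53% of all genes passed as lower, this count is near the background. The list's median difference was -0.29. In a whole vessel, fewer cells of a type and less RNA per cell cannot be told apart.

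Many markers of other leukocytes were lower in the double knockout as well, while 7.53% of all genes passed as lower. Of 8 T cell markers 5 fell, with a median difference of -1.26. Their list mean ran from 5.97 to 7.23 in the double knockout and from 6.62 to 8.82 in the ApoE knockout. It was high in ApoE knockout replicates 2, 3 and 4 (8.82, 8.44 and 8.24). Replicates 1 and 5 (7.06 and 6.62) lay below double knockout replicate 1. Of 7 B cell markers 4 fell (median -1.32, list mean 5.85 to 6.23 in the double knockout and 6.81 to 7.47 in the ApoE knockout). Among 12 neutrophil markers 7 fell (median -1.01, 6.01 to 6.32 in the double knockout and 6.56 to 7.86 in the ApoE knockout), and among 9 mast cell markers 7 fell and 1 rose (median -0.88, 6.00 to 6.44 in the double knockout and 6.57 to 7.46 in the ApoE knockout). With group means subtracted, Pearson's r of Ptger4 over the 10 arrays was 0.51 with the T cell, 0.26 with the B cell, 0.20 with the neutrophil and 0.03 with the mast cell mean, and 0.72 with the endothelial mean. For Tbxas1 these values were 0.30, 0.34, 0.06, 0.14 and 0.64. With the platelet mean, r was 0.56 for Ptger4 and 0.41 for Tbxas1. Of the 12 endothelial markers, 2 passed as lower and 10 did not pass, with a median difference of -0.26. Their list mean ran from 9.55 to 10.03 in the double knockout and from 9.84 to 10.12 in the ApoE knockout. Within a single group r varied widely. For Ptger4 it was 0.15 in the double knockout and 0.90 in the ApoE knockout with the T cell mean. With the neutrophil mean it was 0.86 and 0.09, with the endothelial mean 0.89 and 0.31, and with the macrophage mean 0.94 and 0.93. For Tbxas1 these pairs were 0.06 and 0.66, 0.52 and -0.07, 0.77 and 0.23, and 0.94 and 0.93. With the cardiac muscle mean, r of Tbxas1 was 0.95 in the double knockout, -0.65 in the ApoE knockout and 0.58 over all arrays. With the mesothelial mean, r over all arrays was 0.56 for Tbxas1 and 0.62 for Ptger4. Double knockout replicate 2 was the highest of its group in these means too (7.73 and 7.24), so the high r within the double knockout is not particular to macrophages. The part of these cells in the differences of Tbxas1 and Ptger4 was not tested.

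With the macrophage mean of each array as a covariate, a fit added after the data were seen, the difference of Tbxas1 was -0.28 (SE 0.08, limma adjusted p = 0.046) and that of Ptger4 -0.33 (SE 0.08, adjusted p = 0.019). Both were smaller than without the covariate and both still passed. The plot of members against marker means shows both genes against the macrophage mean over the 10 arrays. The part of macrophages in the differences of Tbxas1 and Ptger4 was not tested beyond this covariate. The genes most like Tbxas1 across the 10 arrays, with group means subtracted, were Plau (Pearson r 0.98), which encodes urokinase, Unc93b1 (0.97), a chaperone of endosomal Toll-like receptors, and the phosphatase gene Ptpn1 (0.97). Those most like Ptger4 were the leukocyte tetraspanin gene Cd53 (0.99), the topoisomerase gene Top2b (0.98) and Slamf8 (0.98), a receptor gene of myeloid cells. Of these genes, Ptpn1 was lower in the double knockout (-0.51, limma adjusted p = 0.0054) and Top2b higher (0.22, adjusted p = 0.027). The others did not pass, with -0.25 for Plau, -0.47 for Unc93b1, -0.70 for Cd53 and -0.26 for Slamf8. Each list of 3 is the top of 12473 genes, and the lists of Tbxas1, Ptger4 and Ptger3 were added after the values were seen.

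Ptger3 varied with the adipocyte markers of the aortas. The mean of 7 brown adipocyte markers was 10.19, 9.73, 10.42, 9.26 and 9.13 in double knockout replicates 1 to 5, against 11.14, 9.94, 10.55, 10.34 and 8.81 in ApoE knockout replicates 1 to 5. In the ApoE knockout, both Ptger3 and these markers were highest in replicate 1, then in 3, 4, 2 and 5. In the double knockout, replicates 1 and 3 were the highest in both. With group means subtracted, Pearson's r of Ptger3 over the 10 arrays was 0.87 with the brown and 0.89 with the white adipocyte mean, and Spearman's rho 0.90 and 0.94. Without the 2 arrays farthest from the median of the adipocyte mean, r was 0.70 and 0.74. With the brown adipocyte mean as a covariate, the difference of Ptger3 was -0.18 (SE 0.19, limma adjusted p = 0.48). Of the 7 brown adipocyte markers, 1, the deiodinase gene Dio2, rose and 6 did not pass, with a median difference of -0.52. Over all genes, 22.8% passed as higher. Of 9 white adipocyte markers 0 passed by limma, with a median difference of -0.14. At an unadjusted p under 0.05, 1 was lower, as were 2650 of all 22180 genes. How far adipocyte RNA accounts for the values of Ptger3 was not tested beyond this covariate. The genes most like Ptger3 were Hoxc8 (Pearson r 0.99), a homeobox gene of trunk position, the respiratory chain gene Sdhc (0.99) and Eif4ebp1 (0.98), a repressor of translation. Hoxc8 was lower in the double knockout (-0.85, limma adjusted p = 0.020), while Sdhc (-0.30) and Eif4ebp1 (-0.20) did not pass. Ptger3 also varied with the Schwann cell mean (r 0.86) and against the endothelial mean (r -0.80).

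**Figure D3:**
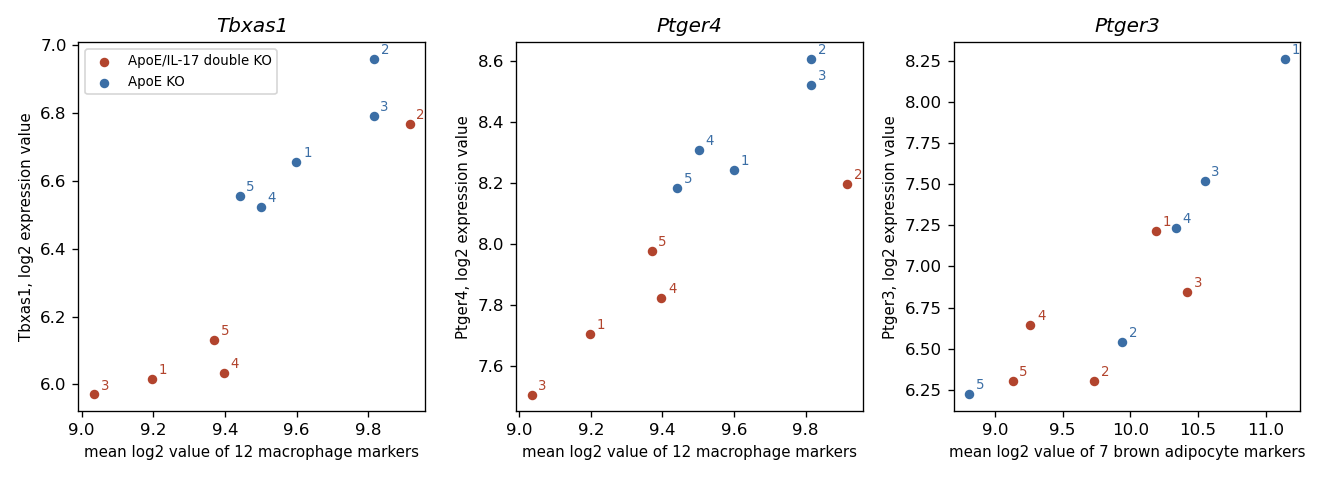
Log2 expression value of Tbxas1, Ptger4 and Ptger3 (vertical axes) against the mean log2 value of the macrophage or brown adipocyte markers (horizontal axes) in 5 double knockout (red) and 5 ApoE knockout (blue) aortas, with replicate numbers. Double knockout replicate 2 has the highest macrophage mean at 9.92, and ApoE knockout replicate 1 the highest brown adipocyte mean at 11.14.

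The rest of the pathway was read from a list of 27 genes, of which 23 were measured, 2 share a probe set with another gene (Pla2g4b and Ptgdr2) and 2 (Akr1b3 and Ptger1) have no probe set named in the annotation used. Of the 23, 3 were higher, 2 lower and 18 did not pass, with a median difference of -0.01. As higher 13.0% of them passed, against 22.8% of all genes, and as lower 8.70%, against 7.53%, so that neither share stands far from the background. The plot of the pathway differences shows that the largest change of the list lay at its first step, in the phospholipases.

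**Figure D4:**
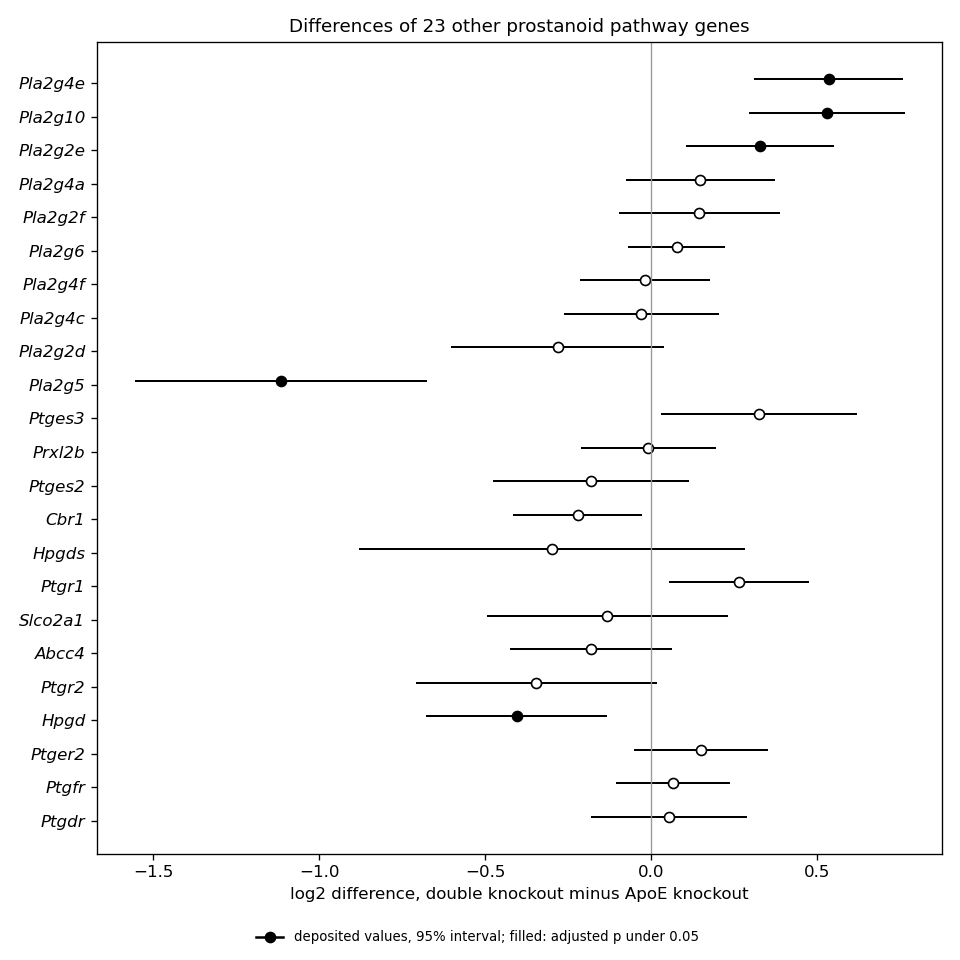
Difference between double knockout and ApoE knockout on the log2 scale (horizontal axis) with 95% intervals of 23 other prostanoid pathway genes, from top to bottom phospholipases, other synthases, breakdown and transport, and other receptors. Pla2g5 at -1.12 and Hpgd at -0.41 are the filled points below 0.

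Pla2g5 encodes the group V secreted phospholipase A2, which frees fatty acids from membranes and lipoproteins. It had 7.98, 8.28, 7.77, 8.86 and 8.65 in double knockout replicates 1 to 5, against 9.09, 9.36, 9.40, 9.75 and 9.53 in ApoE knockout replicates 1 to 5. Every double knockout aorta lay below every ApoE knockout aorta. It was 2.17-fold lower (8.31 ± 0.45 against 9.42 ± 0.24, SD, n = 5 per group; log2 difference -1.12, SE 0.20, limma adjusted p = 0.0026), and the call was kept in all 20 alternatives run (-1.32 to -0.98, adjusted p 0.0011 to 0.024). With group means subtracted, its Pearson r over the 10 arrays was 0.22 with the macrophage mean and -0.66 with the brown adipocyte mean, and with these 2 means as covariates its difference was -1.04 and -1.25. With the neutrophil mean, which was lower in the double knockout as Pla2g5 was, r was 0.48 over all arrays, 0.86 within the double knockout and 0.71 within the ApoE knockout, and with the endothelial mean it was 0.55. The endothelial list had a median difference of -0.26. The part of neutrophils or endothelium in the difference of Pla2g5 was not tested.

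The other phospholipases that passed were higher in the double knockout. Pla2g4e, a cytosolic phospholipase A2, ranged from 6.15 to 6.57 in the double knockout and from 5.69 to 6.10 in the ApoE knockout (difference 0.53, SE 0.10, limma adjusted p = 0.0033), and Pla2g10, a secreted form, from 5.76 to 6.19 in the double knockout and from 5.21 to 5.69 in the ApoE knockout (0.53, SE 0.11, adjusted p = 0.0045). Neither had groups that overlap. After quantile normalization they were 0.35 (adjusted p = 0.035) and 0.32 (adjusted p = 0.053). Pla2g2e, another secreted form, rose by 0.33 (SE 0.10, adjusted p = 0.029), but did not pass after quantile normalization (0.26, adjusted p = 0.092), nor without any one of double knockout replicates 1 and 4 and ApoE knockout replicates 2, 4 and 5 (adjusted p 0.056 to 0.068). After centring, Pla2g2e had 0.12 (adjusted p = 0.35), and with the macrophage covariate 0.32 (adjusted p = 0.085). The ApoE knockout mean of Pla2g10, 5.50, lay below the dim level, and that of Pla2g4e, 5.83, lay just above it. The size of neither difference therefore has a firm reading. That of Pla2g2e, 7.05, lay further above the dim level. The median difference of the chemosensory receptor genes was 0.29, smaller than those of Pla2g4e, Pla2g10 and Pla2g2e as deposited. The part of this shift in their differences was not tested. Pla2g4a, the cytosolic phospholipase A2 that feeds cyclooxygenases in most cells, did not pass (difference 0.15, SE 0.10, 95% interval -0.07 to 0.37, adjusted p = 0.28), nor did the other 5 measured phospholipases.

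Of the 5 other terminal synthase genes measured, 0 passed by limma. At an unadjusted p under 0.05, 1 was higher and 1 lower, against 6883 higher and 2650 lower of all 22180 genes. The first was Ptges3, the cytosolic prostaglandin E synthase and co-chaperone (0.33, SE 0.13, limma adjusted p = 0.084), which lay below the dim level in both groups. The second was Cbr1, a carbonyl reductase that acts on prostaglandin E (-0.22, SE 0.09, adjusted p = 0.075). Hpgds, the hematopoietic prostaglandin D synthase of macrophages and mast cells, had 6.85, 8.10, 6.87, 7.30 and 7.35 in double knockout replicates 1 to 5, against 7.15, 8.26, 7.88, 7.50 and 7.18 in ApoE knockout replicates 1 to 5. It did not pass (-0.30, SE 0.26, adjusted p = 0.41), and double knockout replicate 2 was again the highest of its group (Pearson r with the macrophage mean 0.90 over 10 arrays).

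Among genes of breakdown and transport, Hpgd was lower. Hpgd encodes hydroxyprostaglandin dehydrogenase, the first enzyme of prostaglandin inactivation. It had 8.60, 8.94, 8.29, 8.64 and 8.60 in double knockout replicates 1 to 5, against 8.94, 8.94, 9.35, 8.90 and 8.98 in ApoE knockout replicates 1 to 5. It was 1.32-fold lower (-0.41, SE 0.12, limma adjusted p = 0.029), and the call was lost without double knockout replicate 1, 3, 4 or 5 or ApoE knockout replicate 3 (adjusted p 0.0503 to 0.0642) and with the macrophage mean as a covariate (-0.24, adjusted p = 0.11). Slco2a1, the prostaglandin uptake transporter of endothelium, did not pass (-0.13, SE 0.16, 95% interval -0.49 to 0.23). Ptgr1, Ptgr2 and Abcc4 did not pass either, with differences of 0.27, -0.35 and -0.18. Ptgr2, a prostaglandin reductase, followed the brown adipocyte mean (Pearson r 0.93 over 10 arrays, group means subtracted).

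Of the other prostanoid receptors, Ptgfr, the receptor for prostaglandin F, was measured well above the dim level, with 8.06 ± 0.12 in the double knockout and 8.00 ± 0.08 in the ApoE knockout (SD, n = 5 per group; difference 0.07, SE 0.08, 95% interval -0.10 to 0.23). Ptger2 and Ptgdr, receptors for prostaglandins E and D, lay below the dim level in both groups and did not pass (0.15 and 0.05), so these arrays give no reading of their change.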

How the data were processed

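The deposited table holds the authors' log2 value of each probe set on each array, 10 in all; base 2 was inferred from the range. The submitters' processing notes name limma, without version or step. How background was corrected and values were normalized is not stated there. Of 41345 probe sets, 23521 carry 1 gene symbol, 1814 carry several and were left unnamed, and 16010 have no name here. A gene with several probe sets is represented by that with the highest mean over all arrays, giving 22180 genes; each measured member has 1 probe set.

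The test was limma 3.58.1 (lmFit, eBayes; R 4.3.3) on group alone, two-sided, adjusted by Benjamini-Hochberg over all genes at a threshold of 0.05; 95% intervals are unadjusted. The code was tested on simulated data. The titles call the samples biological replicates, and precision is limited by their number.

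Members and lists were chosen with earlier results of these data known. Named are the members, the pathway genes, up to 3 genes of smallest p per marker list, and the 3 genes most like Ptgs2 (Pearson's r, group means subtracted); Cd163, Itgb3, Dio2 and the genes like other members were added after their values were seen. Sequences are from RefSeq, GRCm38.p6. Alternatives covered quantile normalization, centring, a dim gene filter, another probe set rule and prior, array weights, a replicate block, Welch's test and leaving out each array.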

Additional observations from a re-analysis of the deposited data

Results flagged for a closer look

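In 4 of 64 groups of 5 aortas, 1 aorta stood apart from the others by Dixon's test, which compares its gap to the nearest value with the range of the group, at a critical value of 0.71. Chance gives about 1 in 20 such groups. Tbxas1 in the double knockout had a ratio of 0.797, from replicate 2 at 6.77 with the nearest aorta at 6.13, and the difference without this aorta stands beside the result. Hpgd, the prostaglandin dehydrogenase gene, had a ratio of 0.823 in the ApoE knockout, from replicate 3 at 9.35 with the nearest at 8.98. Pla2g2d, a secreted phospholipase, had 0.726 in the double knockout, from replicate 1 at 7.35 with the nearest at 7.20. Pla2g2f, another secreted phospholipase below the dim level, had 0.719 in the ApoE knockout, from replicate 5 at 4.49 with the nearest at 4.76.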

How the results depend on the processing

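Ptger4, Pla2g5 and Pla2g4e kept their direction and call in all 20 alternatives, 2 of which, with the macrophage or brown adipocyte mean as a covariate, were added after the data were seen. Members called higher were 1 with array weights and 0 to 1 when 1 array was left out (without double knockout replicate 2 or ApoE knockout replicate 1), in each case Ptgds. Members called lower were 1 with Welch's test, which left out Tbxas1 (adjusted p = 0.076) and called none higher, and 1 to 2 when 1 array was left out. With the replicate number as a block, Ptger3 passed as well (adjusted p = 0.047) and pathway genes called lower were 1, with Hpgd lost (0.067); same-numbered arrays deviated together with r from -0.13 to 0.26, 6 of 10 arrays correlated best with their own number, and the numbers are not known to pair mice. Pathway genes called higher were 1 after quantile normalization, 5 with array weights and 2 to 4 when 1 array was left out. Pathway genes called lower were 7 after centring, 1 with Welch's test, where Hpgd (0.065) and, among those higher, Pla2g2e (0.054) did not pass, 1 with the macrophage covariate and 1 to 4 when 1 array was left out, the highest without ApoE knockout replicate 5. Over all genes, higher calls were 1982 after quantile normalization, 1669 after centring, 1935 among the 13308 genes left without the dimmest 40%, and 3068 with the macrophage covariate, against 5050, and 3935 to 5097 when 1 array was left out. Lower calls were 5641 after centring and 867 with the macrophage covariate, against 1671, and 1121 to 1925 when 1 array was left out. Small differences changed sign: Tbxa2r was 0.00702 after quantile normalization, 0.00405 with array weights, 0.00637 with the brown adipocyte covariate and -0.0501 to 0.0262 when 1 array was left out; Ptgir was 0.0413 and 0.0624 with the macrophage and brown adipocyte covariates and -0.136 to 0.0263 when 1 array was left out; Ptges was -0.184 to 0.00783 when 1 array was left out. Group means less than 1 log2 unit above the dim level, or below it, limit Tbxas1, Ptges, Ptgds, Ptgir, Ptger3, Pla2g4e and Pla2g10. The causes of these shifts were not tested.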
